A study of Bos taurus with 2 samples.

Results

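The mir-34 and mir-449 family was described in small RNA libraries of the bovine mammary gland (MG). Its members were taken by name, as every arm listed in the table of known bovine miRNAs for mir-34a, mir-34b, mir-34c or any pre-miRNA whose name begins with mir-449. This gave 4 miRNAs of the 283 known miRNAs and of 884 unique entries in all: mir-34a-5p, mir-34b-5p, mir-34c-5p and mir-449a-5p. The lactation library came from the MG of a multiparous Holstein cow of 6 years that had been in milk for 2 months, and the non-lactation library from a multiparous, non-pregnant Holstein cow of 4 years. With 1 library and 1 cow per period, the period cannot be told apart from the animal, its age or the library. Every test below therefore compares these libraries and not the physiological periods, and every interval is an exact 95% interval that covers counting error only. PCR reads are not independent molecules, so the intervals may be too narrow even for counting error.

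A miRNA recognises its target mRNAs mainly through its seed, the stretch of bases 2 to 8 from its 5′ end, so miRNAs with the same seed are grouped as a family. In mouse and human cells, transcription of the mir-34 genes is activated by the tumour suppressor p53, and the miRNAs repress regulators of the cell cycle and of cell survival. In vertebrate airway, oviduct and brain lining, mir-34b, mir-34c and mir-449 are best known from multiciliated cells, where mir-449 lies within the CDC20B gene and contributes to the making of cilia. The MG epithelium consists of milk-secreting luminal cells and contractile myoepithelial cells and is not a multiciliated epithelium.

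The mature sequences are shown first because they carry the rule of the family. They are written 5′ to 3′ as deposited, with the seed in capitals.
mir-34a-5p: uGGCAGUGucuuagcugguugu
mir-34b-5p: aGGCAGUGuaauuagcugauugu
mir-34c-5p: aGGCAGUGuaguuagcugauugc
mir-449a-5p: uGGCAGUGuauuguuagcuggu

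The seed GGCAGUG occurred in bases 2 to 8 of these 4 miRNAs and of no other entry among the 883 miRNAs with values in both libraries. The shared block ran on to base 9 (GGCAGUGU), and all 4 also held the run UUAGCUG further 3′, at bases 11 to 17 in mir-34a-5p, 12 to 18 in mir-34b-5p and mir-34c-5p, and 14 to 20 in mir-449a-5p. The block of bases 2 to 9 was present in 4 of the 883 entries, and UUAGCUG in 5. The members thus differed in the spacing of the shared runs, with 1 base between them in mir-34a-5p, 2 in mir-34b-5p and mir-34c-5p, and 4 in mir-449a-5p. mir-34b-5p and mir-34c-5p were the closest pair, with 23 bases each and 2 differences counted from the 5′ end, A11G and U23C, where the mir-34b-5p base is given first. Reads that end before the last base differ between them at base 11 alone, so the assignment of shorter isomiR reads to mir-34b or mir-34c rests on 1 base and is uncertain.

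The pre-miRNAs lay at 3 places in the genome build used by the authors, BTA 4.0. The mir-34a hairpin was listed at chr16:41392736-41392842, plus strand, with no other listed pre-miRNA within 10 kb. The mir-34b hairpin at chr15:20035921-20036004 and the mir-34c hairpin at chr15:20036622-20036698 were on the plus strand, 617 nt apart. The mir-449a hairpin was at chr20:25597468-25597555, plus strand. In the RefSeq annotation of a later assembly, ARS-UCD2.0, used here for names and gene neighbourhood only, all 4 genes were found. MIR34A lay within the span of GPR157, MIR34B and MIR34C within the spans of BTG4 and HOATZ, and MIR449A within the span of CDC20B next to MIR449B and MIR449C. Whether a hairpin is exonic or intronic in these genes was not determined here. Of the mir-449 genes in RefSeq, only mir-449a was an entry of the table of known miRNAs used here, so mir-449b, mir-449c and mir-449d were not analysed.

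The values are reads of the most abundant sequence of each miRNA, given also as reads per 1000000 clean reads of the library (RPM). mir-34a-5p, the mir-34 member encoded outside the cluster, had 299 reads or 24.99 RPM (22.2 to 27.99) in the lactation library, against 344 reads or 21.5 RPM (19.3 to 23.9) in the non-lactation library. mir-34c-5p, the 3′ member of the mir-34b and mir-34c cluster, had 204 reads or 17.05 RPM (14.8 to 19.6) in the lactation library, against 265 reads or 16.6 RPM (14.7 to 18.7) in the non-lactation library. The intervals of both miRNAs overlapped between the libraries. mir-34b-5p, the 5′ member of that cluster, had 25 reads or 2.09 RPM (1.35 to 3.08) in the lactation library, against 26 reads or 1.63 RPM (1.06 to 2.39) in the non-lactation library. mir-449a-5p, the member from the CDC20B locus, had 4 reads or 0.334 RPM (0.0911 to 0.856) in the lactation library, against 9 reads or 0.564 RPM (0.258 to 1.07) in the non-lactation library. The lowest count above 0 in either library was 3 reads, so mir-449a-5p lay close to the lower end of what was listed.

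**Figure D1:**
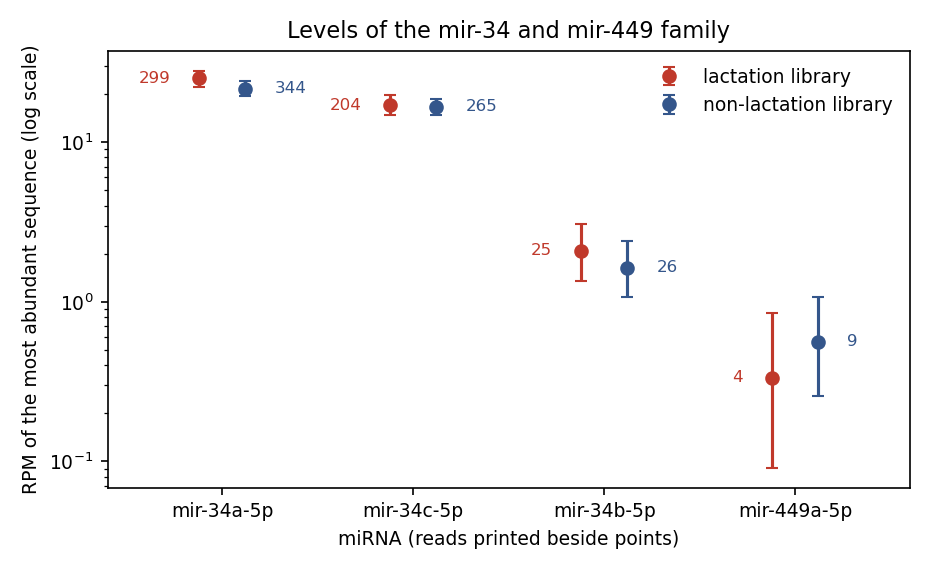
RPM of the most abundant sequence of each family member on a log axis, lactation library left of the non-lactation library. Points are the values of 1 library each, bars are exact 95% counting intervals, and the printed numbers are reads. mir-34a-5p and mir-34c-5p stand between 16.6 and 24.99 RPM in both libraries, mir-34b-5p near 2 RPM and mir-449a-5p below 1 RPM.

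The order of levels was mir-34a-5p, mir-34c-5p, mir-34b-5p and mir-449a-5p in both libraries. Within the lactation library mir-34a-5p had 1.47 times the reads of mir-34c-5p (1.22 to 1.76), and within the non-lactation library 1.30 times (1.10 to 1.53). mir-34c-5p had 8.16 times the reads of its cluster partner mir-34b-5p in the lactation library (5.37 to 12.9), against 10.2 times in the non-lactation library (6.80 to 15.9). The pair that lies 617 nt apart on the same strand thus differed far more in mature level than mir-34a-5p and mir-34c-5p, which lie on different chromosomes. mir-34b-5p had 6.25 times the reads of mir-449a-5p in the lactation library (2.16 to 24.7), against 2.89 times in the non-lactation library (1.31 to 7.01). No interval of neighbours in the order included 1, although reads of different sequences also differ in ligation and amplification, which was not measured.

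The family as a whole was a minor part of the MG miRNA reads. The 4 most abundant sequences summed to 532 reads or 44.5 RPM in the lactation library, against 644 reads or 40.3 RPM in the non-lactation library. This was 0.00944% of the same reads summed over the known miRNAs in the lactation library, against 0.00841% in the non-lactation library. mir-34a-5p gave 56.2% of the family's reads in the lactation library, against 53.4% in the non-lactation library, and mir-34c-5p gave 38.3% in the lactation library, against 41.1% in the non-lactation library. Among the 283 known miRNAs, mir-34a-5p ranked 115 in the lactation library, against 114 in the non-lactation library, and mir-34c-5p ranked 124 in the lactation and 119 in the non-lactation library. mir-34b-5p ranked 198 in the lactation and 204 in the non-lactation library, and mir-449a-5p ranked 247 in the lactation library, against 224 in the non-lactation library. Both leading members therefore stood in the middle of the known miRNAs.

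To ask whether the family differed between the lactation and non-lactation libraries, each ratio of RPM was tested with Fisher's exact test (two-sided) and Bonferroni adjustment over the 883 miRNAs, with a call at an adjusted p under 0.05. None of the 4 members was called, where 250 of the 883 miRNAs were (28.3%), and none had an unadjusted p under 0.05. The ratio of lactation over non-lactation was 1.16 for mir-34a-5p (0.990 to 1.36, p = 0.0612 by Fisher's exact test, adjusted p = 1). For mir-34c-5p it was 1.03 (0.852 to 1.24, exact p = 0.780, adjusted p = 1). The intervals thus leave room for mir-34a-5p to be up to 1.36-fold higher in the lactation library, and for mir-34c-5p to be between 0.852 and 1.24 times the non-lactation level. For mir-34b-5p the ratio was 1.28 (0.711 to 2.31, exact p = 0.398, adjusted p = 1), and for mir-449a-5p it was 0.593 (0.133 to 2.13, exact p = 0.418, adjusted p = 1). The intervals of mir-34b-5p and mir-449a-5p were wide at these read counts and included differences of more than 2-fold.

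At depths like those of mir-34a-5p and mir-34c-5p, other miRNAs were called. Of the 149 miRNAs with 100 to 1000 summed reads, 86 were called (57.7%). The median size of the log2 ratio over all 149 was 0.94 regardless of direction. The log2 ratio was 0.21 for mir-34a-5p and 0.04 for mir-34c-5p. In that range, 19 of the 149 miRNAs had a smaller log2 ratio in size than mir-34a-5p, and 3 had a smaller one than mir-34c-5p. These positions moved with the scaling. With TMM factors, which bring the middle of the miRNA ratios near to 1, the log2 ratio became -0.05 for mir-34a-5p, with 2 of the 149 smaller in size, and -0.22 for mir-34c-5p, with 20 smaller. Without any scaling it was -0.20 for mir-34a-5p, with 18 smaller, and -0.38 for mir-34c-5p, with 35 smaller.

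**Figure D2:**
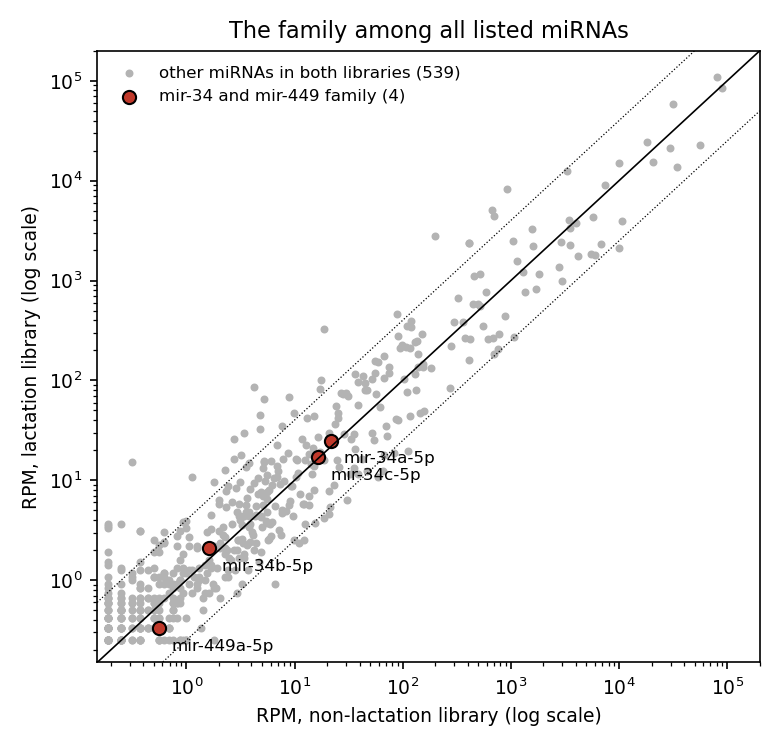
RPM in the lactation library (vertical) against RPM in the non-lactation library (horizontal), both on log axes, for the miRNAs listed above 0 in both libraries. The solid line marks equal RPM, the dotted lines a 4-fold difference, and red points the 4 family members, which lie near the solid line across the lower and middle range of levels.

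The direction of the ratios of mir-34a-5p and mir-34c-5p depended on the library totals. With the stated raw reads as totals the ratio of mir-34c-5p was 0.958, and with TMM factors the ratios were 0.967 for mir-34a-5p and 0.857 for mir-34c-5p. Without scaling the interval of mir-34c-5p (0.638 to 0.927) lay below 1, but its adjusted p was still 1. With the sum of listed reads as totals the ratio of mir-34a-5p was 1.19. Its interval (1.02 to 1.40) lay above 1, but mir-34a-5p was not called. The ratio of mir-34b-5p was below 1 only without scaling (0.962). That of mir-449a-5p was below 1 under all 6 totals, but these rescale the same 4 and 9 reads. Its interval with clean reads as totals (0.133 to 2.13) included 1. No direction is therefore given for any of the 4 members. The sum over the 4 members had a ratio of 1.10 (0.981 to 1.24) with clean reads as totals, and of 0.961 (0.896 to 1.03) over all isomiR reads.

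**Figure D3:**
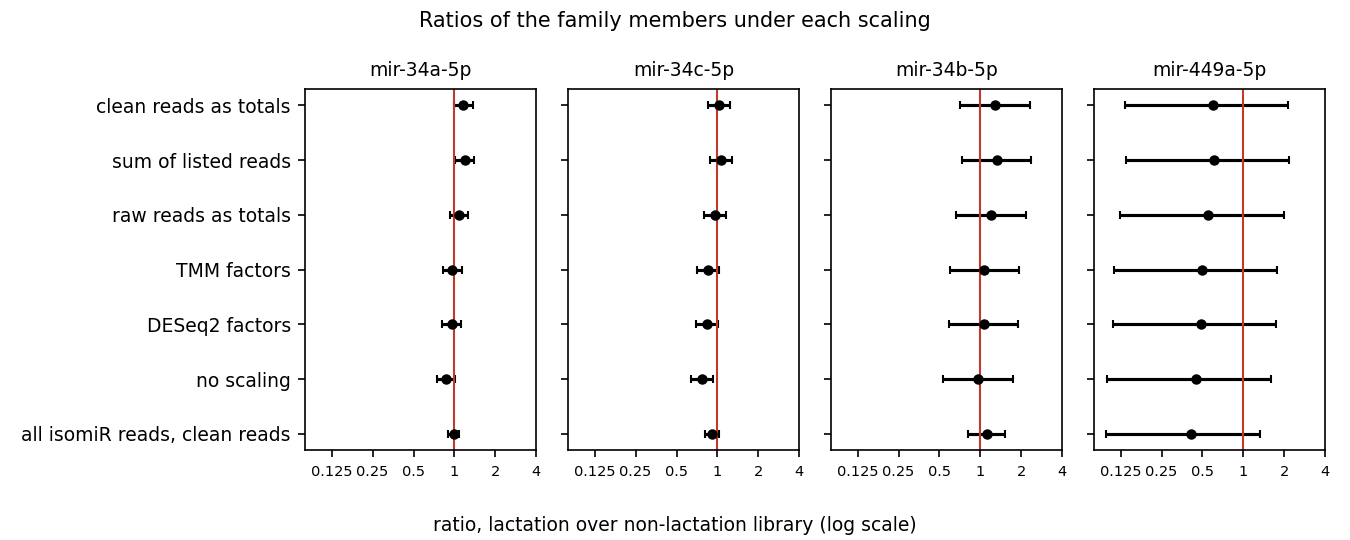
Ratio of the lactation over the non-lactation library for each member (log axis) under 6 library totals for the most abundant sequence and, in the lowest row, for all isomiR reads over clean reads. Bars are exact 95% counting intervals and the red line marks 1. The points of mir-34a-5p and mir-34c-5p lie on both sides of 1, and the interval of mir-449a-5p spans more than 10-fold.

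The make-up of the family needs no scaling, since it sets members against each other within a library. All 6 pairs of members were compared between the libraries with Fisher's exact test and Benjamini-Hochberg adjustment over the 6 pairs. None passed the threshold, with the lowest adjusted p at 0.554. The ratio of mir-34a-5p over mir-34c-5p was 1.13 times as large in the lactation as in the non-lactation library (0.882 to 1.45, exact p = 0.330). For the clustered pair, mir-34c-5p over mir-34b-5p, it was 0.801 times as large (0.430 to 1.49, exact p = 0.461). The pairs with mir-449a-5p had the widest intervals, for instance 0.514 to 10.8 for mir-34b-5p over mir-449a-5p.

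The deposited tables also count isomiRs, the reads of one miRNA that differ at their ends or inside, and how many kinds of such sequences were seen. mir-34a-5p had 816 isomiR reads of 15 kinds in the lactation library, against 1102 reads of 17 kinds in the non-lactation library. mir-34c-5p had 477 reads of 8 kinds in the lactation library, against 700 reads of 11 kinds in the non-lactation library. mir-34b-5p had 75 reads of 5 kinds in the lactation library, against 90 of 6 kinds in the non-lactation library, and mir-449a-5p had 4 reads of 1 kind in the lactation and 13 of 2 kinds in the non-lactation library. mir-34c-5p thus had about as many reads per kind as mir-34a-5p but fewer kinds. Among the known miRNAs whose isomiR reads were within 2-fold of those of mir-34c-5p, the median was 11 kinds in the lactation library (46 miRNAs, 31 of them with more kinds than mir-34c-5p), against 14 kinds in the non-lactation library (36 miRNAs, 23 with more). For mir-34a-5p the median was 17 kinds in the lactation library, above its own 15, against 15 kinds in the non-lactation library, below its own 17.

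With all isomiR reads in place of the most abundant sequence, the ratio was 0.988 for mir-34a-5p (0.902 to 1.08), 0.909 for mir-34c-5p (0.808 to 1.02), 1.11 for mir-34b-5p (0.808 to 1.53) and 0.411 for mir-449a-5p (0.0975 to 1.33). None was called, where 297 of the 781 miRNAs tested on isomiR reads were. The difference from the ratios above lay in the reads outside the most abundant sequence. For mir-34a-5p these made 43.2 RPM in the lactation library, against 47.5 RPM in the non-lactation library, a ratio of 0.910 (0.812 to 1.02), and for mir-34c-5p 22.8 RPM in the lactation and 27.2 RPM in the non-lactation library, a ratio of 0.838 (0.717 to 0.977).

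The most abundant sequence took a larger share of the isomiR reads in the lactation library for all 4 members, but no share was called different. For mir-34a-5p the share was 36.6% (33.3 to 40.1) in the lactation library, against 31.2% (28.5 to 34.04) in the non-lactation library, with p = 0.0144 by Fisher's exact test and an adjusted p of 1 over the 482 miRNAs with usable isomiR reads, of which 91 were called (18.9%). With Benjamini-Hochberg adjustment over the same 482 miRNAs the p of mir-34a-5p was 0.0473 in Fisher's exact test. For mir-34c-5p the share was 42.8% (38.3 to 47.3) in the lactation library, against 37.9% (34.3 to 41.6) in the non-lactation library (exact p = 0.102). For mir-34b-5p it was 33.3% (22.9 to 45.2) in the lactation and 28.9% (19.8 to 39.4) in the non-lactation library, and for mir-449a-5p 100% (39.8 to 100) of 4 reads in the lactation library, against 69.2% (38.6 to 90.9) of 13 reads in the non-lactation library. Among 174 other known miRNAs with at least 100 isomiR reads in each library, the share was higher in the lactation library for 82, and the median share was 45.3% in either library. The quartiles were 35.0% and 58.0% in the lactation library, against 34.1% and 60.3% in the non-lactation library. The 3 mir-34 members lay below the median in both libraries, although the lactation interval of mir-34c-5p included it. mir-34c-5p lay inside the quartiles in both libraries, mir-34a-5p in the lactation library only and mir-34b-5p in neither. The lactation interval of mir-34a-5p and both intervals of mir-34b-5p included the lower quartile. With 75 isomiR reads in the lactation and 90 in the non-lactation library, mir-34b-5p also fell short of the minimum of 100.

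**Figure D4:**
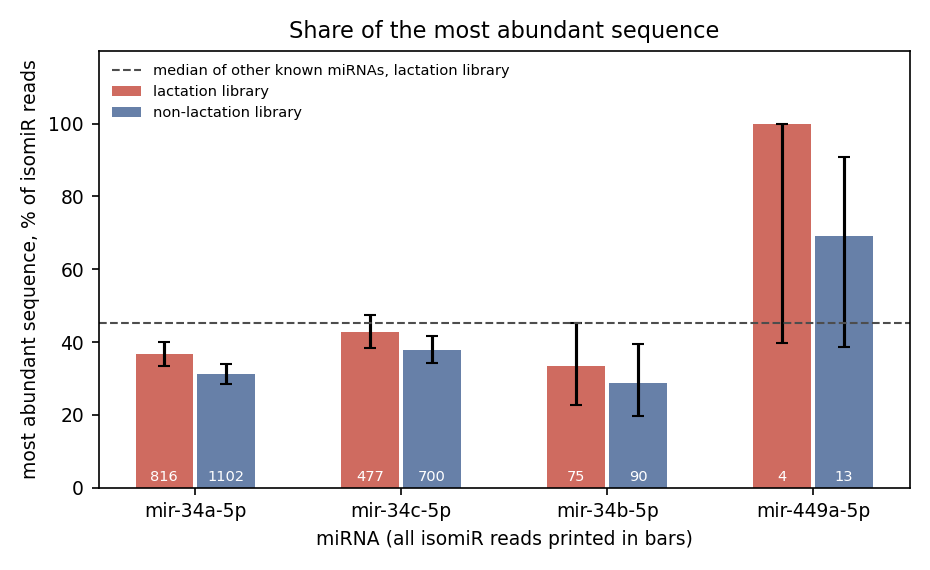
Share of the most abundant sequence among all isomiR reads of each member, lactation library left of the non-lactation library. Bars are the values of 1 library each with exact 95% counting intervals, white numbers are isomiR reads, and the dashed line is the median of 174 other known miRNAs in the lactation library (45.3%). The lactation bar is the taller of each pair, and the intervals overlap in all 4 members, in mir-34a-5p only between 33.3% and 34.04%.

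The strands opposite to the members were listed for 2 of the 4 hairpins, as new (CN) entries at the same hairpin positions. They are shown in their hairpins because the arms are the products compared next. In the hairpins, 5′ to 3′ and plus strand of BTA 4.0, capitals mark both listed arms.
mir-34a hairpin: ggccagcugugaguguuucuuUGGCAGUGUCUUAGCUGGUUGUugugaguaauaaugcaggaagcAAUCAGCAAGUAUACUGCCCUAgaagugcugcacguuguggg
mir-34c hairpin: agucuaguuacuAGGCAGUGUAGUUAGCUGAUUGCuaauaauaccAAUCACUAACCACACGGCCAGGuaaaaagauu

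The 3p arm of mir-34a (CN-232-3p) starts 22 nt after the end of the 5p arm, and that of mir-34c (CN-140-3p) starts 10 nt after it. The longest run of perfect complementarity between the arms was 6 bases in mir-34a, between bases 2 to 7 of the 5p arm (GGCAGU, within the seed) and bases 14 to 19 of the 3p arm. In mir-34c the longest length was 5 bases and occurred at 2 places, between bases 11 to 15 of the 5p arm (GUUAG) and bases 6 to 10 of the 3p arm, and between bases 17 to 21 of the 5p arm (UGAUU) and bases 1 to 5 of the 3p arm. The 3p arms carried other seeds than the 5p arms (AUCAGCA in CN-232-3p and AUCACUA in CN-140-3p), each found in 1 of the 883 entries.

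Both 3p arms were minor. CN-232-3p had 11 reads in each library, which was 3.55% (1.78 to 6.26) of the reads of both mir-34a arms in the lactation library, against 3.10% (1.56 to 5.48) in the non-lactation library. CN-140-3p had 8 reads or 3.77% (1.64 to 7.30) of the mir-34c arms in the lactation library, against 7 reads or 2.57% (1.04 to 5.23) in the non-lactation library. The shares did not pass the test between the libraries (adjusted p = 0.829 for both, Fisher's exact test with Benjamini-Hochberg adjustment over 2 hairpins). Over both libraries the 3p arm made 3.31% of the mir-34a reads and 3.10% of the mir-34c reads, close to the median minor-arm share of 3.25% among 138 hairpins with both arms listed (quartiles 0.410% and 15.6%).

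The known miRNAs nearest to the 2 leading members in level were found by the distance of log2 RPM over the 2 libraries among 244 candidates. For mir-34a-5p they were mir-17-3p, with 27.2 RPM in the lactation and 16.6 RPM in the non-lactation library, mir-196b-5p, with 29.0 RPM in the lactation and 28.7 RPM in the non-lactation library, and mir-193b-3p, with 36.5 RPM in the lactation and 23.9 RPM in the non-lactation library. For mir-34c-5p they were mir-543-3p, with 15.96 RPM in the lactation and 18.6 RPM in the non-lactation library, mir-380-3p, with 18.2 RPM in the lactation and 13.6 RPM in the non-lactation library, and mir-150-5p, with 13.96 RPM in the lactation and 15.2 RPM in the non-lactation library. With 2 libraries such a likeness describes level more than pattern.

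Other miRNAs linked to p53 in mammals did not share 1 direction. Of 10 entries listed as known miRNAs, 5 were called higher in the lactation library, 3 were called lower and 2 were not called. Of all 883 miRNAs, 154 were called higher (17.4%), 96 lower (10.9%) and 633 were not called. All 10 entries had at least 100 summed reads, and with that minimum 205 of 273 miRNAs were called, adjusted over the 273. The median log2 ratio was 0.16 for the 10 entries and 0.24 for the 273 miRNAs. The higher ones were led by mir-141-3p, a regulator of epithelial identity, with 324 RPM in the lactation library, against 18.9 RPM in the non-lactation library, and mir-200c-3p of the same cluster, with 8172 RPM in the lactation and 920 RPM in the non-lactation library. mir-143-3p, typical of smooth muscle, had 2471 RPM in the lactation and 1050 RPM in the non-lactation library. mir-194-5p, which is encoded beside mir-192 in mammals, had 16.2 RPM in the lactation and 7.89 RPM in the non-lactation library. mir-145-5p, the cluster partner of mir-143, had 4036 RPM in the lactation library, against 3436 RPM in the non-lactation library, and its ratio turned below 1 with TMM factors (0.979), DESeq2 size factors (0.966) and no scaling (0.880). Of the lower ones, mir-192-5p had 350 RPM in the lactation and 556 RPM in the non-lactation library, and mir-215-5p, a member of the same seed family, had 16.5 RPM in the lactation and 42.5 RPM in the non-lactation library. mir-107-3p was listed at 0 reads in the lactation library, against 115244 reads in the non-lactation library, while mir-103-3p, which was listed with the same most abundant sequence, had 180907 reads in the lactation and 159117 in the non-lactation library, so how reads were divided between them is uncertain. Over the other library totals, 3 to 6 of the 10 were called higher and 3 to 6 lower. Entries of the same names listed as conserved from other mammals (PC) were left out. Among them PC-15a-5p was called lower (ratio 0.645) and PC-141-3p higher (5.63) with clean reads as totals. PC-16b-5p, PC-145-5p and PC-215-5p were not called.

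Lists of cell type markers, made of known miRNAs only, were read beside the family. The glandular epithelial list (mir-200 family, mir-141 and mir-375) summed to 14985 RPM in the lactation library, against 2104 RPM in the non-lactation library. All 6 of these known entries were called higher under each of the 6 library totals. Conserved (PC) entries of the same names, left out of the list, were mixed. With clean reads as totals, PC-429-2-3p was called lower (ratio 0.373) and PC-429-1-3p was not called. PC-141-3p (5.63), PC-200a-3p (1.79) and PC-200b-3p (3.34) were called higher. Of the multiciliated list, only 3 of 5 miRNAs were listed, all of them family members (mir-34b-5p, mir-34c-5p and mir-449a-5p), and their sum was 19.5 RPM in the lactation library, against 18.8 RPM in the non-lactation library. For comparison, 17.4% of all 883 miRNAs were called higher in the lactation library and 10.9% lower. With a minimum of 100 summed reads, 205 of 273 miRNAs were called in either direction. Of the striated muscle list 2 of 3 entries were called higher in the lactation library and 0 lower, and of the endothelial list 2 of 2 were called higher. Of the stroma and smooth muscle list 2 of 6 entries were called higher and 3 lower, and of the blood cell list 1 of 6 was called higher and 2 lower. With TMM factors these counts were 1 higher and 3 lower for stroma and smooth muscle, and 1 higher and 3 lower for blood cells. The part of these marker differences in the family's values was not tested, and in bulk tissue fewer cells of a type and less of a miRNA per cell cannot be told apart.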

How the data were processed

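Small RNA of 1 MG per period was sequenced. The authors trimmed adaptors, discarded reads of poor quality or from other RNA classes, and mapped the remainder to miRBase 17.0 hairpins and to BTA 4.0 with ACGT101-miR. The 3 deposited tables hold raw counts per miRNA, for its leading sequence and for all isomiRs, and the kinds of isomiR. The library of the lactation period listed 5745936 reads of most abundant sequences, against 7879028 in the non-lactation period, and held 0.749 times as many clean reads. Header cells for isomiR reads and kinds are exchanged in the CN table, judged from its values, and 4 isomiR columns of the conserved table were not used. RPM used the clean reads stated by the study as totals. A listed 0 was set to 3 reads in the value of a ratio only, while RPM, tests and intervals used the 0. Fisher's exact tests and Clopper-Pearson intervals came from scipy 1.17.1, TMM factors from edgeR 4.0.16 and size factors from DESeq2 1.42.0. The tests were tried on simulated data first. Members were taken by name, and further genes by list or nearest level among the known miRNAs. Members and lists were chosen with earlier results of these data known. The labels and the methods of the study name different RNA extraction and library kits. Alternatives, 3 of them added after seeing the data, covered library totals, isomiR reads, the adjustment and minimum reads.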

Additional observations from a re-analysis of the deposited data

How the results depend on the processing

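No family member was called under any of the alternatives run (5 other library totals, all isomiR reads, Benjamini-Hochberg adjustment, and minimums of 10 or 100 summed reads), where the minimum of 100 left only mir-34a-5p and mir-34c-5p to be tested. Over all miRNAs tested, 233 to 243 of 883 were called under the other totals and 297 of 781 with all isomiR reads. With the minimums of 10 and 100 summed reads, 257 of 540 and 205 of 273 were called. The direction of the members' ratios was less stable. The ratio of mir-34a-5p, 1.16 with clean reads, became 0.967 with TMM factors, 0.954 with DESeq2 size factors, 0.869 without scaling and 0.988 with all isomiR reads. That of mir-34c-5p, 1.03 with clean reads, became 0.857, 0.845, 0.770 and 0.909 under the same settings, and 0.958 with raw reads as totals. That of mir-34b-5p became 0.962 without scaling. The sum of listed reads as totals raised the ratio of mir-34a-5p to 1.19 (1.02 to 1.40). These totals moved the median log2 ratio of 273 miRNAs with at least 100 summed reads from 0.24 by -0.26 with TMM factors, -0.28 with DESeq2 size factors, -0.42 without scaling and -0.10 with raw reads, and the share with a ratio above 1 was 56.0% with clean reads, 49.8% with TMM factors, 49.1% with DESeq2 size factors and 45.4% without scaling. Benjamini-Hochberg adjustment called 410 of all 883 miRNAs in place of 250, and took the share of the most abundant sequence of mir-34a-5p (odds ratio 1.27) past the threshold, with p = 0.0473 in Fisher's exact test. The odds of CN-232-3p against its 5p arm, 1.15 in the lactation over the non-lactation library, became 0.699 with all isomiR reads. The counts over lists, the positions among miRNAs of 100 to 1000 summed reads and the ratio of mir-145-5p (0.979 with TMM factors, 0.966 with DESeq2 size factors, 0.880 without scaling) were set against the other totals as a choice made after seeing the data. The odds ratio of mir-449a-5p has no finite value, since all of its 4 lactation reads were of the most abundant sequence. No paired analysis was possible because each period has 1 library, and for the same reason no replicate could be left out. Depth limited mir-34b-5p and mir-449a-5p most.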
